A study of Homo sapiens with 6 samples.

Results

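Distal H3K27ac peaks that were called in every H3K27ac library of the study are described here. They are peaks of the Kasumi-1 NC list on chromosomes 1 to 22 and X that shared at least 1 base with a peak in each of the other 3 lists and did not overlap a window reaching 2500 bases to each side of the canonical start of any of 19970 protein-coding genes. Of the 22724 Kasumi-1 NC peaks on these chromosomes, 7053 met this rule (31%), out of 13646 that lay outside all promoter windows (51.7%, Wilson 95% interval 50.8 to 52.5, which covers counting error only). The peak positions in the 4 lists chose the members, so their presence in each library is not a finding. The study asked whether knockdown of ANP32B, an acidic nuclear phosphoprotein that binds histones, alters H3K27ac in acute myeloid leukemia (AML) cells. Kasumi-1 cells carry the fusion RUNX1::RUNX1T1 and MV4-11 cells a fusion of KMT2A, and both are established AML lines. Per line there was 1 H3K27ac library labelled NC, which the labels call untreated, and 1 labelled shANP32B, from cells with a short hairpin RNA against ANP32B (sh-ANP32B below). An IgG library per line had no peak list and was not analysed here. The methods describe lentiviral hairpins in cells selected with puromycin and list 3 hairpins, without saying which of them these libraries carried.

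Enhancers are stretches of DNA away from gene starts that bind transcription factors and raise transcription of genes on the same chromosome. Nucleosomes beside an active enhancer carry acetylation of histone H3 at lysine 27, which the acetyltransferases EP300 and CREBBP deposit, and clusters of wide acetylated regions often lie around genes that define a cell type. In myeloid cells, enhancers are bound by PU.1 (an ETS factor encoded by SPI1), C/EBP factors, RUNX1, AP-1 and GATA2 or MYB at earlier stages. CUT&Tag marks these nucleosomes with an antibody that guides a transposase, and a peak is a region where the inserted fragments pile up.

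The 4 lists held between 22112 and 24491 peaks on these chromosomes, covering between 23 and 33.6 Mb. Each list was called on merged replicates, held positions and lengths only, and came from 1 library per group, so depth is unknown and no difference below has a replicate check or a p-value. The smallest peaks of the lists were 275 to 357 bases wide, and no peak lay past the end of its hg38 sequence. A check of the labels used bases under peaks in the promoter windows of marker genes. Of 8 blood and myeloid markers, 4 to 6 had a peak per list. The promoters of RUNX1T1, POU4F1 and KIT, chosen as Kasumi-1 markers, had 0 bases under peaks in all 4 lists. HOXA9, chosen as a marker of MV4-11, had 4335 and 4707 bases in the libraries labelled Kasumi-1 and 769 and 659 in those labelled MV4-11, and HOXA10 and MEIS1 also had peaks in all 4. In the fusion, RUNX1T1 follows the start of RUNX1, so its own empty promoter does not bear on the labels. The other markers chosen for the lines went against the labels of the Kasumi-1 libraries, and "Kasumi-1" below means the libraries labelled so. The lymphoid marker CD79A had a peak in every list. Of 4 markers of other tissues, GATA6 had a peak in both Kasumi-1 lists and none was marked in MV4-11. Peak lists cannot show the level of the ANP32B transcript, so the knockdown itself was not checked.

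The sequences below are examples from members with the most shared bases or near genes of the blood cell lists. Only windows with a motif match and no exon were eligible, so they do not stand for the typical member. Of all members, 67.3% had no match to RUNX, ETS, C/EBP or AP-1. Each sequence is the 300 bases at the centre of the bases shared by all 4 lists, on the plus strand of hg38. Capitals mark matches to the searched motifs, which are described further on and are not all those of blood transcription factors. RUNX1, the runt-domain factor needed for the first blood stem cells, had the nearest coding start for 12 members. From its introns 2 windows are shown, at chr21:35026819-35027118 (matches to C/EBP, RUNX and MEIS) and chr21:34967724-34968023 (RUNX, MYB, NFY and C/EBP). The next 3 are near CEBPA at chr19:33268121-33268420 (MEIS, AP-1), CEBPB at chr20:50226535-50226834 (KLF/SP, AP-1, C/EBP) and GATA2 at chr3:128524010-128524309 (GATA), which encode factors of granulocytes, of macrophages and of stem cells. The last 2 are intronic, in RXRA at chr9:134406866-134407165 (AP-1) and in ETV6 at chr12:11773833-11774132 (NFY, MYB, RUNX, ETS).
RUNX1 first window: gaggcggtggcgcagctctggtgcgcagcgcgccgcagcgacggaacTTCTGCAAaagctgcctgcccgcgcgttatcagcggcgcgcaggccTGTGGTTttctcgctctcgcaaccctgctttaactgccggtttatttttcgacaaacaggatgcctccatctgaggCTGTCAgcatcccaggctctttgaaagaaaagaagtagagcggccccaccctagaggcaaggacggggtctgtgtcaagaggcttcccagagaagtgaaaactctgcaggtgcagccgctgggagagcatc
RUNX1 second window: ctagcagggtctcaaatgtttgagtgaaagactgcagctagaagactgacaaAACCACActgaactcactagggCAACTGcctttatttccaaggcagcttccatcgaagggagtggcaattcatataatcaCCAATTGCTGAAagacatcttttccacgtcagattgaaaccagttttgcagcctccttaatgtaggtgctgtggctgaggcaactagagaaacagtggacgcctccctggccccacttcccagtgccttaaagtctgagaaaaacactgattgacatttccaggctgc
CEBPA window: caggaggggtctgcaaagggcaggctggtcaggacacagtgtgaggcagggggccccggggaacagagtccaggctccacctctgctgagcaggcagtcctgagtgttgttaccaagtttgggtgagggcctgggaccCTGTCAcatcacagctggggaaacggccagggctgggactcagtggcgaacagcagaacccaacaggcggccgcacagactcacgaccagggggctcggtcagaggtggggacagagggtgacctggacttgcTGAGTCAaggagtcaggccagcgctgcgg
CEBPB window: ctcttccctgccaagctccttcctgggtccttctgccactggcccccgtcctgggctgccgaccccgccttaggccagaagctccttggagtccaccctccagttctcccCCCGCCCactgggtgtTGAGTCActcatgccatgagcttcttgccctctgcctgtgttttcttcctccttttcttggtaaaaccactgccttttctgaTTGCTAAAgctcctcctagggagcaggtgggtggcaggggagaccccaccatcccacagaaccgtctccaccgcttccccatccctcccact
GATA2 window: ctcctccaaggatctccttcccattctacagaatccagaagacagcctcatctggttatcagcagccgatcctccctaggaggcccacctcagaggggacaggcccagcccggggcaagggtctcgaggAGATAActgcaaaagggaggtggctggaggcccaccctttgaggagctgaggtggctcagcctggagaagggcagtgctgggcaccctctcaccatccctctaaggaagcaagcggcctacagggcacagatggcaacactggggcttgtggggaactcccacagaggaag
RXRA window: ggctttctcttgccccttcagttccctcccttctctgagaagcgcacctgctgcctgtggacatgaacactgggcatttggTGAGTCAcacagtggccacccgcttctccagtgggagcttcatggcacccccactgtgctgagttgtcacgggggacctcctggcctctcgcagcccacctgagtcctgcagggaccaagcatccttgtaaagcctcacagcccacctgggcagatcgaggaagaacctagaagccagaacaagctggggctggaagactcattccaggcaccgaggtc
ETV6 window: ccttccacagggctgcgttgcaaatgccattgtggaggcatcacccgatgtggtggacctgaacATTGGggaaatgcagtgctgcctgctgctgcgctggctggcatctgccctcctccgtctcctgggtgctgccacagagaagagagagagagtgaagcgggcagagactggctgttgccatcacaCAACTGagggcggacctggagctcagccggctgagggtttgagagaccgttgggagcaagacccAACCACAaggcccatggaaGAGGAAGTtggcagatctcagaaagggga

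The members were the wider peaks of their list, and the rule itself favours width, since a wide peak can meet others more easily. The share of distal Kasumi-1 NC peaks that were members was 24.4%, 43.2%, 53.3%, 70.3% and 90.4% from the narrowest to the widest quintile of the list, and the median width was 1254 bases for members and 584 bases for the 6593 distal Kasumi-1 NC peaks that were no members. In the other lists the width at a member is the summed width of all peaks that overlap it. Wherever 4 widths follow each other, the NC and then the sh-ANP32B library of Kasumi-1 come first and those of MV4-11, again NC before sh-ANP32B, come after. The median member was 1254, 1413, 1570 and 1329 bases wide, and the ranges from lowest to highest were 357 to 17210, 354 to 22120, 289 to 15065 and 275 to 14957. From the 10% to the 90% point, widths ran from 493 to 3590, 531 to 4074, 605 to 4080 and 487 to 3583 bases, so the 4 distributions overlapped over most of their range. More than 1 peak met the member in 184 cases after knockdown in Kasumi-1, and in 742 (NC) and 794 (knockdown) cases in MV4-11, and 1265 members shared their MV4-11 NC peak with another member. Only 4617 members (65.5%) were matched 1 to 1 in every list. Those alone had medians of 1105, 1209, 1198 and 1038 bases. Pooled over members, the MV4-11 lists covered fewer of the bases than the Kasumi-1 sh-ANP32B list did. Of all bases under members, 95.1% were also under a Kasumi-1 sh-ANP32B peak, 71.2% under an MV4-11 NC peak and 63.7% under an MV4-11 sh-ANP32B peak. The bases shared by all 4 lists had a median of 652 per member, summed to 7.03 Mb, and 2243 members had at least 1000 of them. At 85 members the lists overlapped the peak at different places and no base was common to all.

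**Figure D1:**
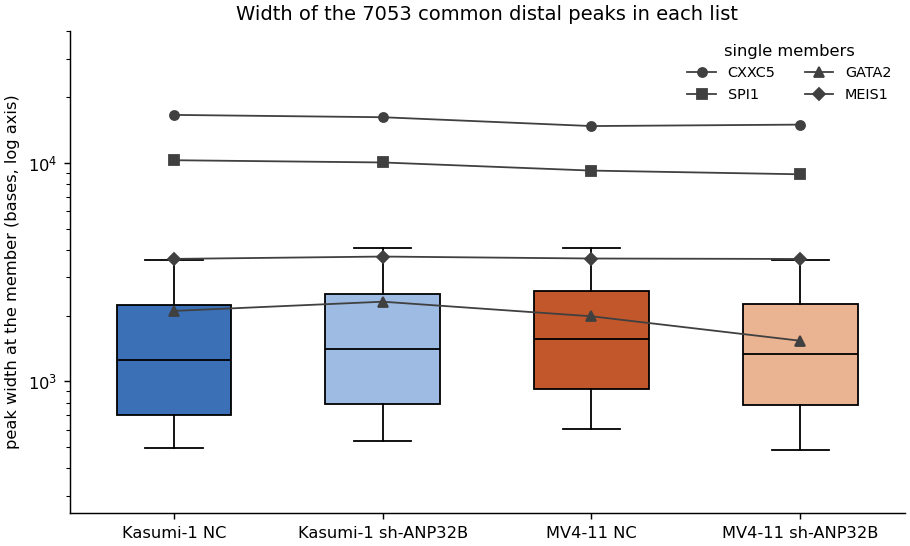
Peak width at the 7053 common distal peaks (bases, log axis) in the 4 lists. Boxes span the quartiles with the median as a line, whiskers reach the 10% and 90% points, and lines join single members near CXXC5, SPI1, GATA2 and MEIS1. The medians lie between 1254 and 1570 bases, while the CXXC5 member spans 16569, 16168, 14732 and 14957 bases.

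In the sh-ANP32B libraries, widths at the members were close to those of NC in Kasumi-1 and more often smaller in MV4-11. In Kasumi-1 the median log2 ratio of sh-ANP32B to NC width was 0.051 (a ratio of 1.036), with 2389 members narrower at any size (33.9%) and 4603 wider. At a fold of 1.5 or more, 182 members were narrower (2.58%) and 845 wider (12%). All Kasumi-1 NC peaks that were in both Kasumi-1 lists gave 5.54% narrower and 10.6% wider, with a median log2 ratio of 0.036. In MV4-11 the median log2 ratio was -0.134 (a ratio of 0.911), with 4478 members narrower at any size (63.5%) and 2556 wider. At a fold of 1.5 or more, 1660 were narrower (23.5%) and 593 wider (8.41%). The background over all Kasumi-1 NC peaks that met both MV4-11 lists was 26.1% narrower and 6.65% wider, with a median log2 ratio of -0.19, so both signs were those of all such peaks. The members were selected on the same lists that give these widths, so nothing is read from a member share against its background. Measured only within the bases of the Kasumi-1 NC peak, which bounds the Kasumi-1 ratio at 0 from above, the Kasumi-1 median turned to -0.012, and the MV4-11 median was -0.039. When at least 50% of both peaks had to overlap, the share narrower in MV4-11 was 10.2%.

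Members past 1.5-fold in neither line numbered 4137 (58.7%). The same share was not counted over all peaks, so nothing particular to the members is read from it. The 4635 promoter peaks common to all 4 lists, selected by the same overlap, had a median log2 ratio of 0.014 in Kasumi-1 and -0.272 in MV4-11, with 1400 narrower by 1.5-fold in MV4-11 (30.2%) and 175 wider (3.78%).

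**Figure D2:**
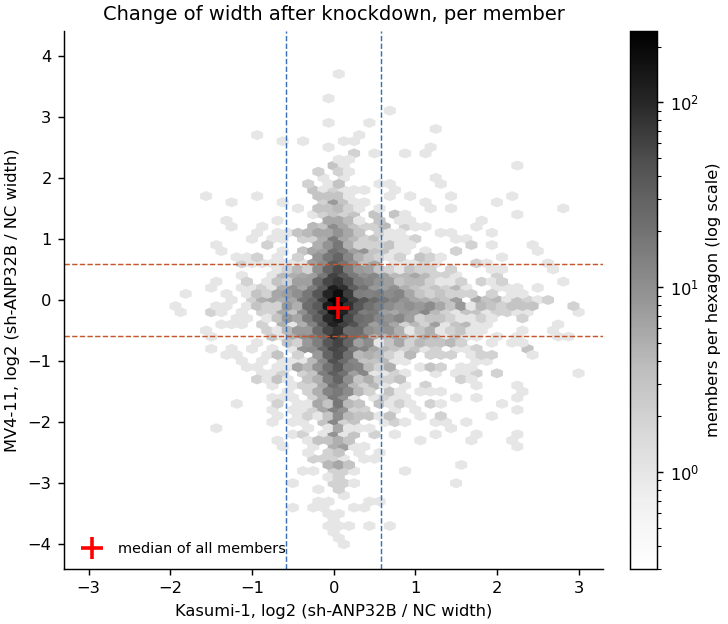
Log2 ratio of sh-ANP32B to NC width at each member in Kasumi-1 (horizontal) and MV4-11 (vertical), as members per hexagon on a log grey scale, with dashed lines at a fold of 1.5 either way and a cross at the medians. Of 7053 members, 7030 fall inside the axes. The cloud is longer downwards than upwards in MV4-11 (1660 against 593 members past the fold) and longer to the right than to the left in Kasumi-1 (845 against 182).

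Among members matched 1 to 1, the 5 with the largest fall of the 2 log2 ratios added up included 4 (MVB12B, TRPV2, KIT and FOXO6) that were narrower by 1.5-fold in MV4-11 but not in Kasumi-1. The member at MVB12B, a subunit of the ESCRT sorting machinery, was 883, 892, 4801 and 340 bases wide. At TRPV2, a calcium channel gene, the widths were 764, 867, 4713 and 298 bases. At a member 160142 bases from the start of KIT, the receptor of stem cell factor, they were 518, 485, 3666 and 336. The MV4-11 control was the wide library at MVB12B, TRPV2 and KIT, and the other 3 libraries had at most 892 bases. GRB10, a receptor adaptor gene, was narrower in both lines with 1518, 557, 1261 and 285 bases, and FOXO6, a forkhead factor gene, had 3606, 2581, 2854 and 368. The largest summed rises were at PENK, the proenkephalin gene, with 435, 1001, 481 and 2731 bases, and at ZC3H3 with 1707, 6892, 1590 and 4925. HK2, which encodes hexokinase 2, had 359, 1680, 459 and 1207 bases. CCL1, a chemokine gene, had 1072, 2464, 454 and 1844, and the member nearest to FEM1B, in an intron of ITGA11, had 834, 1984, 853 and 3185. These 10 were chosen for their change, so the values are a description. At the 5 that rose, both sh-ANP32B libraries were wider than both NC libraries.

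Between the control libraries, no direction of width was stable. MV4-11 NC was narrower than Kasumi-1 NC by 1.5-fold at 1588 members (22.5%, with a background of 34.0%) and wider at 2448 (34.7%, with a background of 22.8%), at a median log2 ratio of 0.054. Members matched 1 to 1 gave -0.047, and members taken from the MV4-11 NC list in place of the Kasumi-1 NC list gave -0.227, with 36.2% narrower and 21.9% wider. The sign thus changed with the list that supplied the members, and also with other choices made on the Kasumi-1 NC list. An overlap of 50% of both peaks gave -0.104 and peaks of at least 1000 bases -0.078. A common smallest width and joining gap kept it above 0, at 0.123. All Kasumi-1 NC peaks that met the MV4-11 NC list had a median of -0.236.

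Most members lay inside genes. By the position of the peak centre, 4515 were in introns (64%), 829 in exons (11.8%) and 1709 between genes (24.2%), with coding and noncoding genes counted. With protein-coding genes only, 54.4% were in introns, 6.79% in exons and 38.8% between genes. The median distance to the nearest canonical coding start was 31669 bases, 17.7% of members lay under 10 kb away, 64.8% from 10 to 100 kb and 17.4% at 100 kb or more. A window around the start of a noncoding gene overlapped 1200 members (17%). Only canonical starts were excluded, so some members may lie at another start of a coding gene. With the starts of all protein-coding transcripts the median distance was 19167 bases. The 3058 distal peaks found only in both Kasumi-1 lists had a median distance of 26838 bases and the 4294 found only in both MV4-11 lists 43650 bases. With all genes counted, the Kasumi-1-only peaks were 60.1% in introns, 11.2% in exons and 28.6% between genes. The MV4-11-only peaks were 66.8%, 7.38% and 25.8%, so lying mostly inside genes is not particular to the members.

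**Figure D3:**
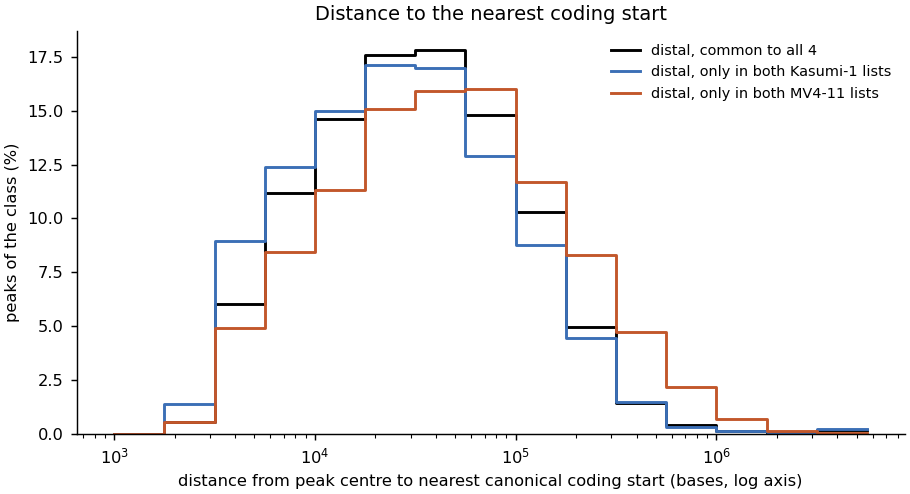
Share of peaks (%) by distance from the peak centre to the nearest canonical coding start (bases, log axis) for the 7053 members, the 3058 distal peaks only in both Kasumi-1 lists and the 4294 only in both MV4-11 lists. The member curve lies between the others at most distances, with medians of 31669, 26838 and 43650 bases.

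In GC content the members lay close to the Kasumi-1-only distal peaks and above the MV4-11-only ones. The median GC content of the peak was 52.0% for members, 52.8% for the Kasumi-1-only distal peaks, 41.8% for the MV4-11-only distal peaks and 60.7% for the common promoter peaks. The ratio of observed to expected CpG in the 300-base window had a median of 0.269 in members and 0.759 in common promoter peaks. A set of 12 short motifs was searched as exact letters on both strands. Runt-domain factors were searched as TGTGGTT, ETS factors in the form of PU.1 as GAGGAAGT, C/EBP factors as TTGCNNAA, AP-1 as TGANTCA and GATA factors as AGATAA. The letters for MYB were CAACTG, those for E-box factors such as MYC were CACGTG, those for KLF and SP factors were GGGCGGG and those for the insulator protein CTCF were AGGGGGCGC. MEIS was searched as TGACAG, IRF as GAAANNGAA and the promoter factor NFY as CCAAT. Matches of different motifs seldom overlapped each other, the most frequent pair being C/EBP with MYB in 32 members.

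At least 1 of the 12 motifs was matched in 73.9% of members. AP-1 letters were in 934 windows (13.2%), against 7.82% of Kasumi-1-only and 19.8% of MV4-11-only distal peaks, 5.11% of common promoter peaks and 10.4% of all peaks of the 4 lists. C/EBP letters were in 916 (13.0%), against 9.88%, 23%, 6.75% and 12.4% in the same order. RUNX letters were in 497 (7.05%), against 5.0%, 10.5%, 2.83% and 6.03%. ETS letters were in 328 (4.65%), against 2.35%, 5.45%, 2.98% and 3.77%. For these 4 motifs the member share lay above the Kasumi-1-only share and below the MV4-11-only share, which is also the order of the share for GATA at 9.27%, 7.46% and 20.0%. KLF/SP letters, which are rich in G and C, ran the other way, with 6.78% of members, 7.46% of Kasumi-1-only peaks and 1.75% of MV4-11-only peaks, and 33.7% of common promoter peaks. CTCF letters were in 0.326% of members. Of all peaks of the 4 lists, 9.63% held the letters of GATA, 14.8% those of KLF/SP and 0.83% those of CTCF. MEIS letters were in 21.2% of members and 18.2% of all peaks, MYB letters in 12.2% and 11.8%, NFY letters in 25.2% and 25.6%, IRF letters in 8.04% and 7.97% and E-box letters in 6.31% and 6.02%. Among all distal peaks of the 4 lists, AP-1 was at 13.2%, C/EBP at 14.9%, RUNX at 7.55%, ETS at 4.26%, GATA at 11.9% and KLF/SP at 5.54%. Of RUNX, ETS, C/EBP and AP-1, 4748 members had none, 1956 had 1, 328 had 2 and 21 had 3 in the same window. GC content differs between the classes in the same order as several motif shares, and its part in them was not tested. Member windows sat at the centre of the bases shared by all 4 lists, which a peak outside the common set lacks. Around the centre of the Kasumi-1 NC peak, members had AP-1 at 11.8%, C/EBP at 11.7%, RUNX at 6.65% and ETS at 3.49%. C/EBP and ETS then lay below their shares in all peaks, and all 4 motifs below those in all distal peaks. Nothing is therefore read from member shares against all peaks.

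**Figure D4:**
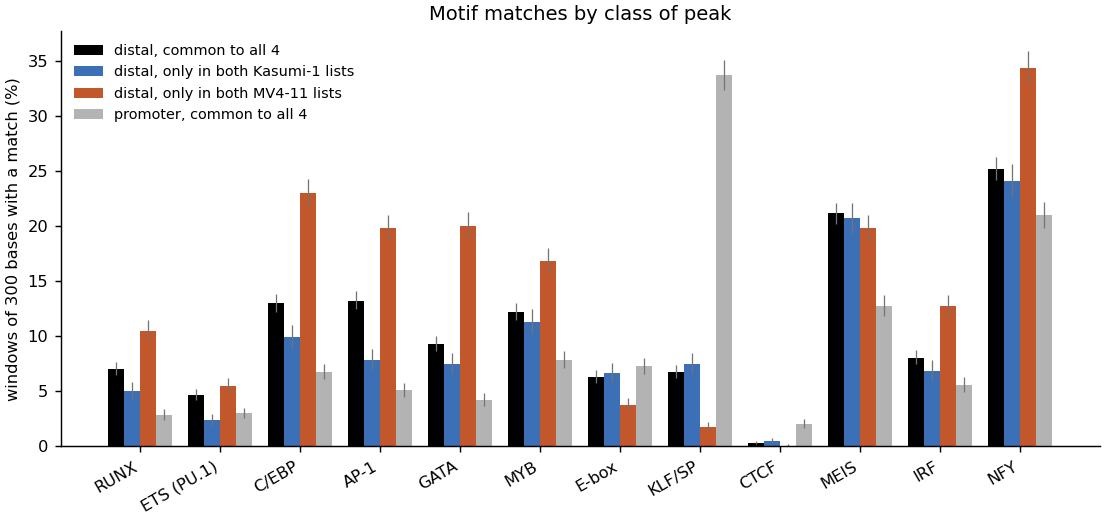
Share of 300-base windows (%) with a match to each of 12 motifs in the members and 3 other classes of peaks, with Wilson 95% intervals as error bars that cover counting error only. Members sit between the Kasumi-1-only and MV4-11-only distal peaks for AP-1 (13.2% against 7.82% and 19.8%) and C/EBP (13.0% against 9.88% and 23%), and common promoter peaks stand highest for KLF/SP (33.7%).

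Of the 10 members with the most bases shared by all 4 lists, 9 lay in introns. The member with the most shared bases, 14248 in sum, lay in an intron of CXXC5 at chr5:139655836-139672404. It was 16569, 16168, 14732 and 14957 bases wide, in 1, 3, 3 and 2 peaks. CXXC5 encodes a CXXC zinc finger protein. Neighbouring introns of AHRR, the repressor of the aryl hydrocarbon receptor, held 2 of these members, one of 12298, 12391, 11595 and 11019 bases and one, nearest to the start of EXOC3, of 13604, 15725, 12253 and 11972 bases. An intron of RIN3, a RAB5 exchange factor gene, held a member (nearest start LGMN) of 17210, 19934, 15065 and 13216 bases, which was 1 peak in each Kasumi-1 list but 6 in MV4-11 NC and 5 in its knockdown. MV4-11 peaks were the narrower ones at these 4 members.

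Nuclear receptor genes held 2 of the 10. An intron of RXRA, which encodes the retinoid X receptor alpha, held a member at chr9:134401424-134412382 of 10959, 11939, 12665 and 13796 bases. An intron of RARA, the retinoic acid receptor alpha gene, held one at chr17:40317160-40328441 of 11282, 11367, 10685 and 9824 bases. A member in the noncoding gene PELATON, 82313 bases from the start of CEBPB, had 12616, 12417, 11459 and 10885 bases. The others lay in introns of ZMIZ1, a transcriptional coactivator gene (nearest start PPIF, 11476, 10933, 10519 and 10608 bases) and TESC, a calcium-binding protein gene (12928, 13114, 10975 and 10290 bases), and near HOMER3 (13119, 13806, 10690 and 10288 bases). At RXRA MV4-11 sh-ANP32B was the widest library, and at RARA, TESC, CEBPB and HOMER3 it was the narrowest.

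Joined where at most 12500 bases apart, the 7053 members formed 4580 domains, and 3160 members stood alone (44.8%). The median gap between neighbouring members was 40002 bases. Domains were not counted for other classes of peaks, so no clustering particular to the members is read from this. There were 116 domains of 5 or more members, holding 720 members, and 4 of 10 or more. The domain near CD93, a receptor gene of myeloid and endothelial cells, held 12 members over 49806 bases, with distinct peaks summing to 23215, 24728, 25509 and 23971 bases. The one nearest to RNF24 held 12 over 52417 bases (19271, 20926, 21377 and 19094). The domain at SCARB1, the scavenger receptor for high-density lipoprotein, held 10 and had 20108, 20671, 13805 and 15320 bases. The one at CCDC200 held 10, with 12814, 10173, 17714 and 17160. The Kasumi-1 lists were wider at SCARB1 and the MV4-11 lists at CCDC200, counting whole peaks that overlap the members. One domain of 9 members covered the genes TNFRSF8 and TNFRSF1B, which encode TNF receptor superfamily members, and another of 9 lay near SRGN, which encodes the granule proteoglycan serglycin.

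By nearest coding start, 3421 of 19970 genes had at least 1 member (17.1%), 1957 had 1 and 48 had 10 or more. The 10 genes with the most were TPTE with 21, JARID2 with 17, TOMM20 and CCDC200 with 16, and LY86, ZFP36L2, MBP, XYLT1, UACA and SMAD3 with 15. JARID2 encodes a cofactor of the Polycomb repressive complex 2, and its members lay from 53597 to 517016 bases from its start, all but 1 of them upstream. LY86 encodes a partner of the B cell and macrophage receptor CD180, and its members summed to 38729, 40946, 37529 and 35193 bases over distinct peaks. ZFP36L2, an mRNA decay factor gene, had 48389, 47701, 34484 and 25893 bases, the 2 MV4-11 libraries lying below both Kasumi-1 libraries. SMAD3, the TGF-beta signal transducer, had 27651, 27729, 19239 and 19356, again lower in both MV4-11 libraries. JARID2 ran the other way in the control libraries, with 24307 and 29582 bases in Kasumi-1 and 30788 and 27516 in MV4-11. The MV4-11 sums count whole peaks, including parts outside the Kasumi-1 NC members. A count by nearest start depends on how far apart the genes are, and with any gene within 100000 bases only 3 of these 10 stayed among the first 10.

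The 21 members nearest to TPTE lay on sequence that occurs more than once in the genome. They were on chromosome 21, 688584 to 5507270 bases from the start of TPTE, and include the 5 members farthest from any coding start, with widths such as 7232, 7288, 5202 and 4291 bases for the widest of those 5. In all 21 windows, at least 50% of the words of 31 bases occurred more than once on the main chromosomes, and in 13 every word did. Over all members, 4474 windows had only unique words (63.4%), 937 had repeated words over at least 50% of their length (13.3%) and 123 throughout (1.74%). The same shares were 48.8%, 24.9% and 2.78% for Kasumi-1-only distal peaks, 72.1%, 6.94% and 2.86% for MV4-11-only distal peaks, and 84.8%, 2.96% and 0.561% for common promoter peaks. A read that lies wholly in repeated sequence cannot be placed uniquely, so the position of these members is uncertain. How many reads could be placed was not measured. Of the 24 members at least 1 Mb from a coding start, 15 were on chromosome 21 and 11 were repeated throughout.

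Lists were made of blood cell genes and of AP-1, ERK feedback, and MYC and BCL2 family genes. They were drawn up with earlier results of these data known. Of 98 genes in 8 lists, 59 had at least 1 member (60.2%), beside 17.1% of all coding genes. Among 14 genes of liver and other lineages, 2 had one, APOA1 and CDH1. Over all members the median log2 ratio was 0.051 in Kasumi-1 and -0.134 in MV4-11, and no list is called different from that.

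Myeloid transcription factors had members at 11 of 14 genes, 36 in all, with median log2 ratios of 0.03 in Kasumi-1 and -0.28 in MV4-11. SPI1, which encodes PU.1, had 1 member at chr11:47387015-47397292, upstream of its start in the region of its known upstream regulatory element, and its width was 10278, 10038, 9215 and 8862 bases. It was 1 unbroken peak in each list, and MV4-11 sh-ANP32B was the narrowest. CEBPA, the factor of granulocyte commitment, had 4 members downstream, 16014 to 35238 bases from its start. The farthest, at chr19:33263146-33271447, was 8302 and 8348 bases in Kasumi-1 and 6589 and 5318 in MV4-11, and the nearest was 2404, 2579, 882 and 701. The distinct peaks at the 4 summed to 20458, 20488, 16227 and 13820 bases, so the MV4-11 libraries were lower than the Kasumi-1 libraries and sh-ANP32B lower than NC in MV4-11. Next to them, a member 39817 to 43364 bases downstream of CEBPA, in the region of its known myeloid enhancer but nearest to the start of SLC7A10, was 3548, 3567, 3398 and 3168 bases. IRF8, a monocyte and dendritic cell factor, had 7 members with sums of 30159, 34044, 22126 and 16509 bases. The one in IRF8 itself, 5878 bases past the start, was 5687, 5624, 3010 and 1283. CEBPB had 5 members (26181, 28072, 21221 and 21391 bases), of which 1 at 158025 bases was wider in both sh-ANP32B libraries with 1197, 3173, 554 and 1551. KLF6 had 7, KLF4 4, KLF2 3 and CEBPD 2.

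Stem and progenitor factors had members at 12 of 19 genes, 63 in all, and 47 of the 63 were narrower at any size in MV4-11 sh-ANP32B (63.5% over all members) and 18 in Kasumi-1 sh-ANP32B (33.9% over all members). At a fold of 1.5, 20 were narrower and 4 wider in MV4-11, where 23.5% and 8.41% of all members were, and 0 were narrower and 11 wider in Kasumi-1, where 2.58% and 12% of all members were. The 12 members nearest to the RUNX1 start summed to 15397, 16938, 25025 and 21379 bases over distinct peaks, of which 11058 bases were shared by all 4 lists. Further members, from 202390 to 241580 bases downstream of that start, were nearer to another coding start and are not in these sums. The MV4-11 sums here and below count whole peaks that can reach past the Kasumi-1 NC members. A larger MV4-11 sum is therefore not read as a difference between the lines. Among the 12, 3 RUNX1 members lay under a single MV4-11 peak, of 6777 bases in NC and 6763 after knockdown. The RUNX1 member at chr21:35026399-35027537, which holds the first window printed above, was 1139 and 1150 bases in Kasumi-1 and 4429 and 4412 in MV4-11. ETV6, an ETS repressor gene that leukemias often fuse, had 13 members with 9934, 13217, 20660 and 18625 bases. ZEB2, an E-box repressor of myeloid differentiation, had 5 with 3580, 4102, 21481 and 20169 bases. MYB had 4 with 3503, 3479, 10417 and 7382, and FLI1 7 with 6591, 6436, 11408 and 7394. IKZF1, which encodes the lymphoid and myeloid factor Ikaros, had 9 with 15949, 16654, 12053 and 11125, higher in Kasumi-1. GATA2 had a single member, 30675 bases upstream, with 2101, 2315, 1985 and 1534 bases. TAL1, LYL1, MECOM, HLF, GFI1B, NFE2 and IKZF2 had 0.

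**Figure D5:**
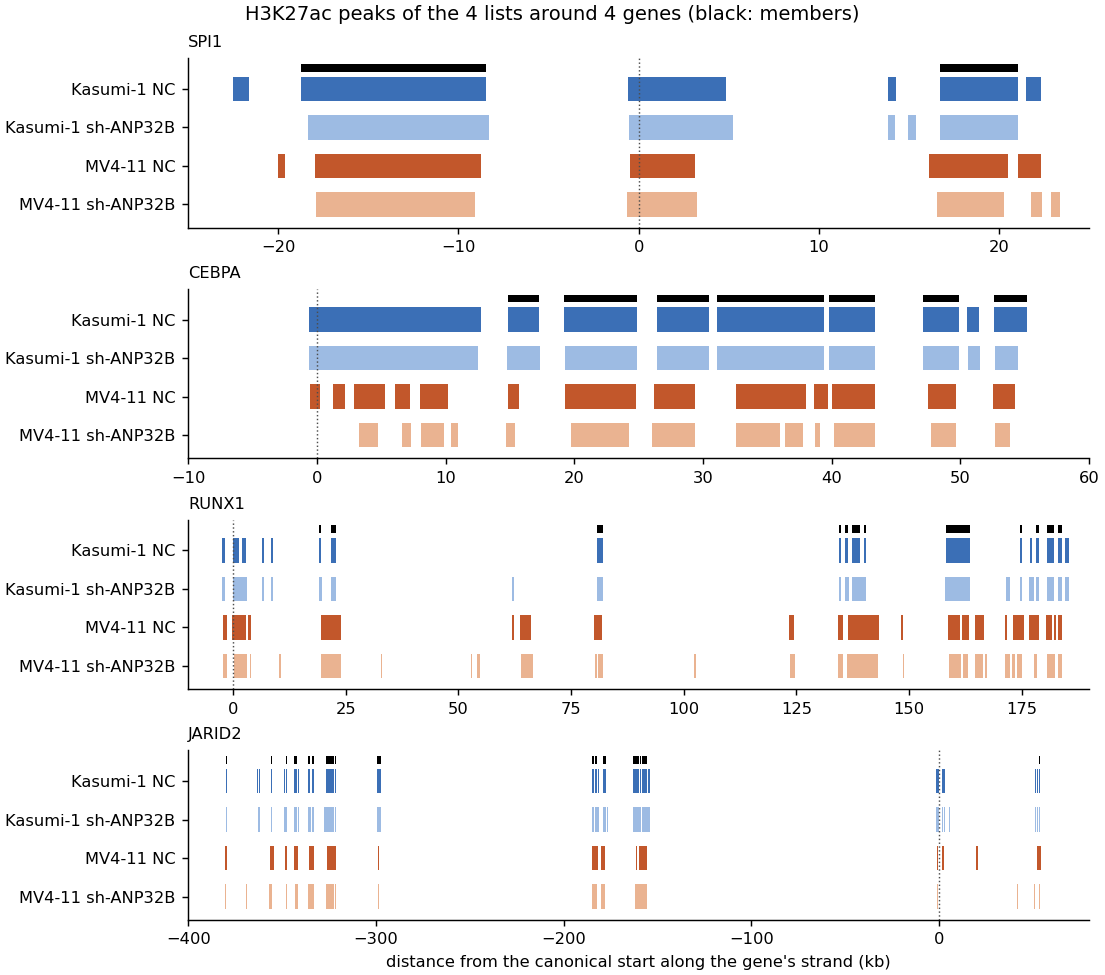
Peaks of the 4 lists around SPI1, CEBPA, RUNX1 and JARID2 by distance from the canonical start along the gene's strand (kb), with members as black bars on top and a dotted line at the start. At SPI1 the upstream member spans about the same bases in the 4 lists (10278, 10038, 9215 and 8862 wide), and at RUNX1 several members narrow in Kasumi-1 lie under wider MV4-11 peaks.

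KMT2A fusion targets and HOX cofactors had members at 3 of 10 genes. MEIS1, the HOX cofactor, had 1 intronic member 10179 bases past its start that kept its width, at 3634, 3725, 3649 and 3631 bases. The HOXA9 member, which also holds the microRNA gene MIR196B, was 2461, 7224, 1879 and 1909 bases, so the Kasumi-1 knockdown stood apart. The CDK6 member was 700, 684, 4505 and 1864. Growth factor receptors had members at 6 of 10 genes, the widest in an intron of IL6R (7652, 7409, 5368 and 5487 bases). KIT had 5 members although its promoter had no peak in any list, and they summed to 3263 and 3385 bases in Kasumi-1 and 7257 and 3732 in MV4-11. Myeloid proteins had members at 6 of 14 genes and a median MV4-11 log2 ratio of -0.53 over 16 members, 10 of them narrower, beside 63.5% of all members. CD34, the stem cell surface antigen, had 6 that summed to 6589, 6702, 8257 and 4199 bases, and LYZ, the lysozyme gene, 2 members under 1 MV4-11 peak of 6571 bases in NC and 6757 after knockdown. MPO, ELANE, AZU1, PRTN3 and CTSG, the primary granule genes, had 0.

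MYC and BCL2 family genes had members at 6 of 11. MYC had 3, which summed to 2454, 2886, 4093 and 3776 bases and lay 25122 to 313059 bases from its start. BCL2L11, which encodes the proapoptotic protein BIM, had 10 with 22854, 25165, 24923 and 26089 bases, most of them in the noncoding gene MIR4435-2HG. The single BCL2 member was 4398, 4320, 2227 and 333, low in MV4-11 sh-ANP32B alone. AP-1 genes had members at 7 of 10, with a median MV4-11 log2 ratio of 0.26 and 9 of 22 narrower, beside 63.5% of all members. The widest was downstream of FOS at 5962, 6310, 5686 and 5606 bases. The 5 JUN members summed to 6298, 6683, 6019 and 8816, highest in MV4-11 sh-ANP32B, and the JUND member was 5147, 4641, 3168 and 845, lowest there. ERK feedback genes, which encode phosphatases and Sprouty proteins that dampen the kinase, had members at 8 of 11 with a median MV4-11 log2 ratio of 0.05. DUSP6, an ERK phosphatase gene, had 5 that summed to 2928, 2841, 6601 and 9765 bases. ANP32B, ANP32A and RUNX1T1 had 0 members, and POU4F1 had 3, at 1572, 2469, 8852 and 8447 bases. The summed widths at POU4F1 and KIT, both chosen as markers of Kasumi-1, were larger in the MV4-11 libraries, though single KIT members were not. These sums count whole MV4-11 peaks that reach past the Kasumi-1 NC members, so they are no measure of a difference between the lines.

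Named microRNA genes overlapped the members at 36 of 1852 genes, in 31 members. The mature forms of 6 that are studied in blood cells are printed because the members sit on their genes, which was decided after the values were seen. The sequences are from RefSeq (GRCh38.p14) with the seed, bases 2 to 8, in capitals, and no 2 of the 6 share a seed.
hsa-miR-223-3p: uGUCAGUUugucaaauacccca
hsa-miR-23a-3p: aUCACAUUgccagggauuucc
hsa-miR-27a-3p: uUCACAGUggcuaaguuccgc
hsa-miR-24-3p: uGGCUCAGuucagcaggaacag
hsa-miR-196b-5p: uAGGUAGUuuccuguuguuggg
hsa-let-7i-5p: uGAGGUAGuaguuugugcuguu

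The cluster of MIR23A, MIR27A and MIR24-2 lay in 1 wide member at chr19:13833160-13844414 of 11255, 10643, 9910 and 8747 bases. MIR223, which is abundant in granulocytes and monocytes, lay in a member of 437, 473, 10036 and 681 bases, wide in the MV4-11 control alone. The MIRLET7I member was 1904, 1864, 1613 and 1495 bases and the MIR196B member is the HOXA9 one given above.

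Near the limits of the rule, the members closest to a promoter window were at IGLON5 (2507 bases from the start, widths 479, 354, 870 and 1839), CD74 (2509) and WDR91 (2512). The common peaks just inside a window were at RXFP4 (2491 bases, widths 2222, 2056, 1604 and 565), SH2B3 (2490) and BAK1 (2478). The smallest overlap of a member with another list was 1 base, 94 members had under 50 bases of overlap in some list, and 164 of the 6593 distal nonmembers missed a list by a gap of at most 100 bases.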

How the data were processed

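H3K27ac CUT&Tag was measured in 4 libraries (Kasumi-1 and MV4-11, NC and sh-ANP32B), with an IgG library per line that was not analysed here. Per the methods, the authors aligned reads with Bowtie2, removed duplicates, merged replicates and called peaks with MACS at a q-value of 0.01 before they deposited the lists. The submitters' processing notes name Bowtie2 2.4.4, MACS3 3.0 and hg38, and the versions in the methods differ. The deposited files hold other values than counts or scores: each peak's chromosome, 1-based start and end and width in bases, with no height, q-value or depth.

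Positions were compared with hg38 and GENCODE 44 in Python 3.11.15 with pandas 2.3.3, NumPy 2.4.6, SciPy 1.17.1, pysam 0.24.0 and matplotlib 3.10.9, by scripts that were tested on simulated peaks. An overlap of 1 base counted as shared. Each peak was given to the nearest canonical coding start, and classes were compared by shares and medians. With 1 list per group no test between conditions was possible. Of the Kasumi-1 NC peaks, 971 lay on other sequences than chromosomes 1 to 22 and X and were left out. Domains joined members with gaps of at most 12500 bases.

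The members, gene lists and motifs were chosen with earlier results of these data known. By rule the text names the 10 members with the most shared bases, the 5 farthest from a coding start, the 5 largest falls and the 5 largest rises in width among members matched 1 to 1, members nearest to a gene of the lists, the 10 genes with the most members, and 12 fixed genes. The domains, the microRNA genes and the member near SLC7A10 fall outside that rule and were chosen after their values were seen. Sequences were read from hg38 and, for mature microRNAs, from RefSeq. Alternatives changed the overlap, the source list, the smallest peak, the fold, the promoter window, the annotation and the motif window. One more, leaving out members in repeated sequence, was added after seeing the data. One marker gene is not reported here.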

Additional observations from a re-analysis of the deposited data

Results flagged for a closer look

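The median width of the members differed between sh-ANP32B and NC in opposite directions in the lines. The median log2 ratio of sh-ANP32B to NC width was 0.051 in Kasumi-1 and -0.134 in MV4-11. All Kasumi-1 NC peaks present in both lists of a line gave 0.036 and -0.19, so the signs are not particular to the members, and within the bases of the Kasumi-1 NC peak the Kasumi-1 median was -0.012. Each line had 1 library per condition, so whether the lines differ was not tested. The whole MV4-11 list also covered less after knockdown (23 Mb, against 27.9 Mb in NC) and the whole Kasumi-1 list slightly more (33.6 Mb, against 32.7 Mb), and their part in the result was not tested.

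Data outside the comparisons held common peaks too. Of the 971 Kasumi-1 NC peaks on sequences other than chromosomes 1 to 22 and X, 391 shared a base with a peak in each of the other 3 lists (40.3%). Such sequences include unplaced and alternate copies of the main chromosomes, and whether these peaks repeat members was not tested.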

How the results depend on the processing

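No paired analysis was possible because each group had 1 library. The alternative with a stricter q-value was not run, since the lists hold no q-value, and the precision that depth gives is unknown. Of 153 comparisons of a main value with an alternative, 68 kept their value within the limits set, 78 moved and 7 changed direction. Direction could change only for the median log2 ratios, since the other values cannot fall below 0, and all 7 changes were among them. The limits were wider for counts and for shares narrower or wider than for median widths, log2 ratios and GC content. For the shares of single motifs, 49 of 84 kept their value and 35 moved, and a change of direction was not possible. Moves follow from the construction where fewer peaks, other windows or another fold were used, and elsewhere the cause was not tested. Requiring an overlap of 50% of both peaks left 2335 members with median widths of 1568, 1657, 1511 and 1416 bases. Under that overlap 5.74% were wider in Kasumi-1 at a median log2 ratio of 0.036, and in MV4-11 10.2% were narrower and 4.84% wider at -0.061. Between the controls 10.5% were wider at -0.104, a reversal, with 61.5% in introns, 13.7% in exons, a GC content of 53.4%, a motif in 75.5%, 3 of the first 10 genes kept and 36 list genes with a member. With peaks of at least 1000 bases there were 2517 members of 2397, 2593, 2400 and 2093 bases, 1.23% narrower in Kasumi-1 (0.031), 15.3% narrower and 4.09% wider in MV4-11 (-0.095), and 21.2% wider between controls, where the median reversed to -0.078. Taken from the MV4-11 NC list, members were 1581, 1710, 1301 and 1193 bases wide, 3.88% narrower in Kasumi-1 (0.045), at -0.116 in MV4-11, and 36.2% narrower and 21.9% wider between controls, reversed to -0.227, with a median distance of 29422 bases and a GC content of 51.2%. Members matched 1 to 1 had 1105, 1209, 1198 and 1038 bases, with -0.109 in MV4-11 and a reversed -0.047 between controls. Counting covered bases only gave medians of 1173 bases after knockdown in Kasumi-1 and of 838 (NC) and 749 (knockdown) in MV4-11, by construction 0.0% wider in Kasumi-1 (reversed to -0.012), -0.039 in MV4-11, and between controls 36.9% narrower, 0.0% wider and a reversed -0.37. A common smallest width and joining gap gave 1656 and 1436 bases in MV4-11, with -0.114 after knockdown and 0.123 between controls. A smaller fold gave 5.98% narrower and 19.6% wider in Kasumi-1 and 36.1% and 15.1% in MV4-11. A fold of 2 gave 0.652% and 6.44% in Kasumi-1, 12.1% and 3.71% in MV4-11, and 10.6% narrower between controls. Without members in repeated sequence, chosen after seeing the data, Kasumi-1 medians were 1310 and 1482 bases, the control ratio reversed to -0.003, GC content was 52.3% and 76.1% had a motif. With protein-coding genes only, 54.4% were in introns, 6.79% in exons and 38.8% between genes. The median distance was 35882 bases with a promoter window made 2 times as wide and 19167 with the starts of all coding transcripts. GC content was 52.7% in the 300-base window. A motif was matched in 49.4% of narrower windows, 90.4% of wider ones and 71.4% around the centre of the Kasumi-1 NC peak. With any gene within 100000 bases, 3 of the first 10 genes were kept. The MV4-11 median stayed below 0 in every alternative run.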
